A study of Mus musculus with 8 samples.

Results

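The genes described here are 31 genes of autophagy and of the lysosome, out of 41128 rows of the deposited count table. They were chosen by symbol for their known roles, with earlier results of these data known. All 31 were found under that symbol, and all 31 passed the filter on low counts, which kept 15771 genes. RNA was sequenced from the corpus callosum, the main white matter tract between the hemispheres, of PLP-150Q mice. In this model of Huntington's disease a mutant huntingtin fragment with a long glutamine repeat is directed to oligodendrocytes by a promoter active in those cells. The 4 LAQ libraries (5 to 8) came from mice given LAQ at 5 mg/kg for 2 months from the age of 3 months. The 4 control libraries (1 to 4) came from mice of the same strain given purified water over the same time, and both groups were 5 months old at the end. The abbreviation was taken to mean laquinimod, an immunomodulator given by mouth. Every mouse carried the transgene, so the data hold no comparison with a mouse that lacks it, and poly(A) RNA of a whole tissue piece was measured. The design names 4 mice per group, but no label ties each library to a separate mouse, so the p-values measure the spread between these samples.

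Autophagy delivers cell material to the lysosome for breakdown. The ULK kinases and the Beclin 1 lipid kinase complex start a membrane, the ATG conjugation enzymes attach small ubiquitin-like ATG8 proteins to it, and cargo receptors link cargo to those ATG8 proteins. The closed vesicle then fuses with a lysosome, whose membrane proteins and acid hydrolases carry out the digestion. TFEB is a transcription factor that activates many lysosomal and autophagy genes through a short palindromic element in their promoters. Autophagy is one route by which mutant huntingtin is removed, and inherited loss of several of the lysosomal enzymes below causes storage disease that affects brain or myelin.

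Forms of that element were searched for in the promoters of these genes. The core alone, CACGTG, reads the same on both strands. RefSeq promoter windows on GRCm38.p6, each from 250 bases before to 50 bases after a transcription start, were matched by symbol for 27 of the 31 genes. Becn1, Atg12, Atg16l1 and Map1lc3a had no entry. CACGTG occurred in a window of 11 of the 27 genes (40.7%), against 8.09% of 27025 genes and 7.15% of 32851 windows. The 11 were Atg3, Atg5, Atg7, Cln3, Ctsa, Ctsl, Gaa, Gla, Lamp1, Mcoln1 and Tbc1d15. The longer form TCACGTGA, which contains the core, occurred in Atg3, Cln3, Ctsa, Gla and Mcoln1, against 1.12% of all genes. A match is a description of letters and shows no binding. The shares are set against all genes with a window, expressed here or not. The list holds genes of the class this element is known from, so its higher share is no result of these data. Genes with several starts have several windows, which raises their chance of a match. Windows of a few genes are shown 5′ to 3′ on the gene's strand, with every CACGTG in capitals. Tbc1d15, at chr10:115251444-115251743 (minus strand), had the largest difference between the groups. Lamp1, at chr8:13158911-13159210 (plus strand), holds 4 copies, and the calcium channel gene Mcoln1, at chr8:3500269-3500568 (plus strand), holds 2.
Tbc1d15: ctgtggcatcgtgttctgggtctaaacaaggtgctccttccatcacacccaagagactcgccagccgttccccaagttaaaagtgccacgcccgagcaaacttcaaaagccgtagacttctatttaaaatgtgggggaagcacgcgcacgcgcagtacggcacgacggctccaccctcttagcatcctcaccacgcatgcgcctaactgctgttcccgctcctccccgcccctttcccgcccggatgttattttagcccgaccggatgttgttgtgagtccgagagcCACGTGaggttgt
Lamp1: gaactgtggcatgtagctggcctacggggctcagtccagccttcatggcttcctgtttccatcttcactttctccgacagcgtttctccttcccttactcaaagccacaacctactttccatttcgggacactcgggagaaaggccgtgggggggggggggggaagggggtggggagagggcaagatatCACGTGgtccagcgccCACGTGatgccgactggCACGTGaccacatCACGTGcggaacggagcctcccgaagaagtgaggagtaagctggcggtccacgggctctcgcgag
Mcoln1: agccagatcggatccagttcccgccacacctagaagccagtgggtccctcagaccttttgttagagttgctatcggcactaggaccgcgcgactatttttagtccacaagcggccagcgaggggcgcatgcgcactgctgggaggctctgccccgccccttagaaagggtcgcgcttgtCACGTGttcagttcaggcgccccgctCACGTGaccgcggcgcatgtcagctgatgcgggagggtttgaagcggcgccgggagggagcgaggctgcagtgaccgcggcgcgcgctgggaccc

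LAQ libraries held 9634156 to 12021429 counts and control libraries 8790749 to 11972197, of which the 31 genes took 0.522% to 0.537% in LAQ and 0.507% to 0.520% in control. LAQ 7 stood apart from the other LAQ libraries, since a chi-square comparison of its counts with each of them gave 16.1 to 25.6 per degree of freedom, and every other pair within a group gave 4.24 to 8.93. Its 14 cortical neuron markers summed to 2772 CPM (counts scaled by TMM to a common library size), below the 3757 to 4315 CPM of the other 7 libraries, and its 9 striatal neuron markers to 4315 CPM, above the 644 to 2235 CPM of the others. Myelin and mature oligodendrocyte markers were abundant, at 13289 to 17379 summed CPM in LAQ and 12544 to 14333 CPM in control, and 15 of 15 had a positive log2 fold change. Ependymal markers summed to 76.4 to 89.6 CPM in LAQ and 49.9 to 64.4 CPM in control (9 of 9 positive), microglial markers to 616 to 742 CPM and 682 to 749 CPM (1 of 12 positive). None of these lists had a defining marker at 0 in all libraries. Their part in the values below was not tested, and in a tissue piece fewer cells of a type cannot be told apart from less RNA per cell.

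Differences in this set between the LAQ and control tissue pieces were small. Over the 31 genes the median log2 fold change was 0.04, with 21 positive and 10 negative, beside a median of -0.0012 and 49.7% positive over the 15771 genes tested. The values ran from -0.16 for the kinase gene Ulk1 to 0.38 for Tbc1d15, a regulator of the small GTPase Rab7. By edgeR's quasi-likelihood test with Benjamini-Hochberg adjustment over all genes, 0 of the 31 passed an adjusted p of 0.05, where 0% of all genes did. At an unadjusted edgeR p under 0.05 there were 3 of the 31 (Tbc1d15, Tfeb and Ulk1), or 9.68%, against 11.1% of all genes. In 2 of the 31 (Tbc1d15 and Gabarapl2), or 6.45%, no LAQ library lay within the control range and no control library within the LAQ range, against 6.39% of all genes. Both shares were near those of the whole transcriptome. DESeq2 called Tbc1d15 alone (3.23% of the 31, against 0.845% of the genes it adjusted, or 0.177% called higher). EdgeR also called it alone without LAQ 7, where 2.13% of all genes were called and 0.736% were called higher. It was again called alone with the cortical neuron score as covariate, where 3.08% of all genes were called. That score was computed from these same counts. It stood at 0.02, 0.27, -0.93 and -0.55 in LAQ 5 to 8, against 0.16 to 0.40 in control. Since the score differed between the groups, that fit is no independent check of a group difference. The list was chosen with earlier results of these data known, so its shares called do not test the set.

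The intervals limit the difference of each gene in the fit with all libraries, for the tissue piece as a whole. For all 31 genes the 95% interval of the log2 fold change, each taken on its own, lay within a 1.5-fold difference in either direction, and for 26 of them within 1.25-fold. With a library left out, 29 to 31 of the genes lay within 1.5-fold and 23 to 26 within 1.25-fold. Of all genes tested, 69.8% had an interval within 1.5-fold and 34.5% within 1.25-fold. The 5 genes with wider intervals were Tbc1d15, Tfeb, Optn, Atg7 and Gla. The set is abundant, with a median log2 CPM of 6.84 against 4.66 over all genes, and the median coefficient of variation between libraries was 7.08% in LAQ and 5.34% in control, against 12.7% and 9.98% over all genes.

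**Figure D1:**
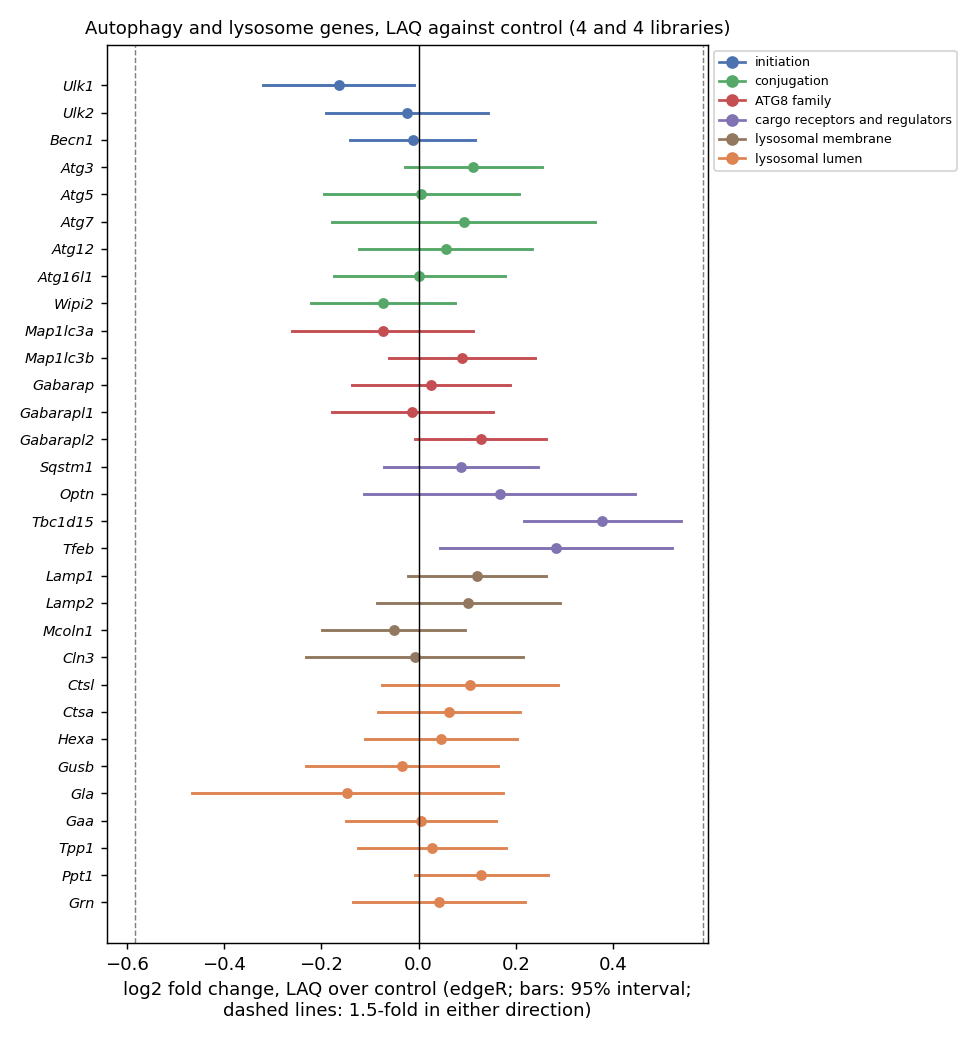
Log2 fold change of each of the 31 genes, LAQ over control (x axis), with its 95% interval as a bar, grouped by role down the page; the dashed lines mark 1.5-fold in either direction. Every bar stays inside the dashed lines, and Tbc1d15 lies farthest from 0, at 0.38.

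All 3 initiation genes had negative values, those of Ulk2 and Becn1 close to 0, and none passed the test. With a library left out in turn, the sign turned in 3 fits for Ulk2 and in 2 for Becn1. Ulk1, which encodes the kinase that starts autophagosome formation, stood at 94.6, 81.2, 84.7 and 80.0 CPM in LAQ 5 to 8, against 92.8, 96.5, 98.5 and 93.9 CPM in control 1 to 4. LAQ 6, 7 and 8 lay below every control library, while LAQ 5 lay within the control range. The log2 fold change of Ulk1 was -0.16 ± 0.07 by SE. The edgeR test gave a p of 0.0393 and an adjusted p of 0.431. Its paralogue Ulk2 stood at 147 to 173 CPM in LAQ and 149 to 175 CPM in control, with a log2 fold change of -0.02. Becn1, the scaffold of the lipid kinase complex, stood at 164 to 174 CPM in LAQ and 165 to 172 CPM in control. Its 95% interval ran from -0.14 to 0.12. Exons of Becn1 overlap those of Cntd1 on the opposite strand over 43.9% of their length, and the strand setting of the counting was not given in the sources used here, so part of its count is uncertain. The same holds for Gabarapl1 (28.3%), Ctsl (26.9%), Sqstm1 (17.3%), Hexa (12.8%) and Ctsa (10.5% with Pltp and 6.87% with Neurl2), and to under 10% for Lamp1, Cln3, Ppt1, Grn, Optn and Map1lc3b. Ctsl also shares 6.09% of its exon length with a pseudogene on its own strand.

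None of the 6 conjugation genes passed the test. Atg3, the enzyme that transfers ATG8 proteins to lipid, averaged 84.3 ± 2.15 CPM in LAQ and 78.0 ± 3.80 CPM in control (SD, n = 4 each), the largest log2 fold change of this group at 0.11, with an adjusted p of 0.537 by edgeR. The lowest LAQ value of 81.9 CPM lay just under the highest control value of 82.1 CPM. Atg7, the activating enzyme, stood at 37.5 to 44.8 CPM in LAQ and 31.7 to 49.0 CPM in control. Control 2 gave the 49.0 CPM, and the log2 fold change of Atg7 was 0.09, or 0.24 without that library and 0.015 without control 4. Atg5 and Atg12, which are joined to each other, and their partner Atg16l1 had log2 fold changes of 0.0060, 0.06 and 0.0017. Wipi2, which recruits ATG16L1 to the growing membrane, stood at -0.07, or -0.035 without control 2 and -0.033 without LAQ 8.

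All 5 ATG8 genes were expressed, and their shares were close in the groups. Per kilobase of merged exon, Gabarapl1 took 48.0% ± 1.48 of the family's reads in LAQ and 48.4% ± 1.28 in control (SD, n = 4 each). Map1lc3a followed with 19.4% to 22.6% in LAQ and 20.7% to 22.7% in control, and Gabarap with 16.0% ± 0.70 and 15.6% ± 0.53. Map1lc3b took 9.46% ± 0.51 in LAQ and 8.87% ± 0.52 in control, and Gabarapl2 took 5.72% ± 0.36 and 5.21% ± 0.19. The order was the same in all 8 libraries. The merged exons of Map1lc3b are 7517 bases long against 1181 for Map1lc3a, so an isoform with a short end would be underrated on this scale.

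Gabarapl2 was the other gene with no overlap between the groups. It stood at 70.4, 68.0, 68.0 and 71.9 CPM in LAQ 5 to 8, against 63.5, 63.0, 65.1 and 63.1 CPM in control 1 to 4. The log2 fold change was 0.13 ± 0.06 (SE), with an adjusted p of 0.465 by edgeR. Gabarapl2 has 3 processed pseudogenes at least 95% identical to it over 200 or more bases, and Map1lc3b has 4, so their counts are uncertain. Map1lc3a stood at 138, 128, 109 and 142 CPM in LAQ 5 to 8 and at 130.4 to 142 CPM in control. LAQ 7, the library with the fewest cortical neuron marker counts, gave the lowest value, and the log2 fold change of -0.07 became 0.0012 without it. For Map1lc3b the log2 fold change was 0.09, for Gabarap 0.03 and for Gabarapl1 -0.01.

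**Figure D2:**
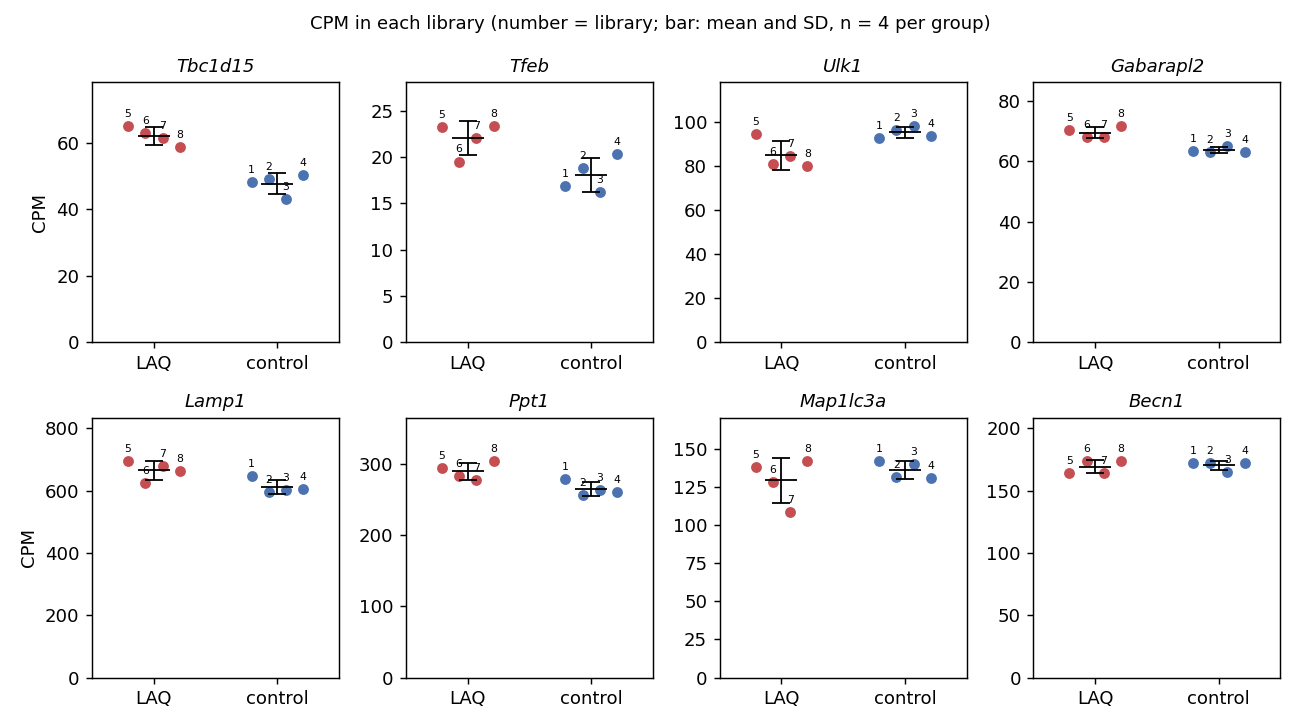
CPM of 8 of the genes in each library, LAQ left of control, with the library number above each point and the mean and SD as a bar (n = 4 per group); each axis starts at 0. The groups separate for Tbc1d15 and Gabarapl2 and overlap for the other 6, and for Map1lc3a LAQ 7 lies lowest at 109 CPM.

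The receptors and regulators held the genes farthest from 0. Tbc1d15 encodes a GTPase-activating protein of Rab7 that acts at mitochondria and shapes the autophagosomes formed around damaged ones. It stood at 65.1, 62.9, 61.3 and 58.6 CPM in LAQ 5 to 8, against 48.1, 49.1, 43.1 and 50.2 CPM in control 1 to 4. Every LAQ library lay above every control library, and the means differed by more than the range within either group. The difference was 1.30-fold, a log2 fold change of 0.38 ± 0.07 (SE) with a 95% interval of 0.22 to 0.54, and it ranked 28 of 15771 genes by p. EdgeR gave a p of 0.000264. It missed the threshold in edgeR (adjusted p = 0.140) and passed it in DESeq2 (adjusted p = 0.00845), in edgeR without LAQ 7 (adjusted p = 0.0316) and in edgeR with the cortical neuron score (adjusted p = 0.0422). As given above, that score itself differed between the groups. The log2 fold change stayed between 0.34 and 0.41 with each library left out in turn, with an adjusted p of 0.0316 to 0.409. In GRCm38 with GENCODE M21, Tbc1d15 is a protein-coding gene of chromosome 10 that spans 115197872 to 115251467 on the minus strand. No exon of another annotated gene overlaps its own.

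Tfeb, the regulator of lysosomal genes, was the next. It stood at 23.2, 19.5, 22.1 and 23.4 CPM in LAQ 5 to 8, against 16.9, 18.8, 16.2 and 20.4 CPM in control 1 to 4. LAQ 6 lay below control 4, and the other LAQ libraries lay above all controls. For Tfeb the log2 fold change was 0.28 ± 0.11 by SE. The edgeR test gave a p of 0.0240 and an adjusted p of 0.384, with an adjusted p of 0.400 by DESeq2. Tfeb lies on chromosome 17 from 47737030 to 47792419. Sqstm1, the receptor for ubiquitin-tagged cargo, averaged 637 ± 53.5 CPM in LAQ and 599 ± 13.2 CPM in control (SD, n = 4 each), with log2 fold change 0.09. It was 0.043 without LAQ 5, 0.13 without LAQ 7 and 0.20 with the cortical neuron score (edgeR adjusted p = 0.157). Optn, a receptor in the removal of damaged mitochondria, stood at 28.7, 18.5, 21.8 and 23.5 CPM in LAQ 5 to 8 and at 19.6 to 21.7 CPM in control. LAQ 5 was highest, and the log2 fold change of 0.17 was 0.05 without it and 0.26 without LAQ 6.

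No test was made between genes with and without CACGTG or TCACGTGA. With CACGTG the median log2 fold change was 0.06 over 11 genes, from -0.15 to 0.38, against 0.04 over the 16 matched genes without it, from -0.16 to 0.28. With TCACGTGA the median was -0.0078 over 5 genes, against 0.07 over the 22 without it. The 5 are among the 11, and for either form the ranges with and without it overlapped. Without Tbc1d15, whose single copy is seen near the end of the sequence shown, the highest of the 11 was Lamp1 at 0.12. Mcoln1, with 2 copies, stood at -0.05.

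Lysosomal membrane genes differed little. Lamp1, the most abundant membrane glycoprotein of the lysosome, stood at 695, 626, 678 and 662 CPM in LAQ 5 to 8, against 646, 594, 603 and 604 CPM in control 1 to 4. LAQ 6 lay below control 1 and the other LAQ libraries above all controls. The log2 fold change of Lamp1 was 0.12 ± 0.06 by SE, with an adjusted p of 0.511 by edgeR. Lamp2, which takes part in fusion with autophagosomes, averaged 154 ± 7.83 CPM in LAQ and 144 ± 16.6 CPM in control (SD, n = 4 each), with log2 fold change 0.10, or 0.033 without control 2. Mcoln1, the lysosomal calcium channel, averaged 113 ± 6.83 CPM in LAQ and 117 ± 4.78 CPM in control (SD, n = 4 each). Its log2 fold change ran from -0.081 without LAQ 5 to -0.013 without LAQ 8. Cln3, the membrane protein lost in Batten disease, averaged 23.4 ± 1.79 CPM in LAQ and 23.5 ± 2.26 CPM in control (SD, n = 4 each), and its value of -0.0078 had an interval of -0.23 to 0.22.

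In the lumen, 7 of 9 genes had a positive value and 2 a negative one, and none passed the test. Ppt1, which removes fatty acids from proteins, stood at 294, 283, 277 and 304 CPM in LAQ 5 to 8, against 279, 256, 264 and 261 CPM in control 1 to 4. Only control 1 reached into the LAQ range. Among the positive values that of Ppt1 was the largest, a log2 fold change of 0.13 ± 0.06 (SE; edgeR adjusted p = 0.467). Ctsl, a cysteine protease, had a log2 fold change of 0.11, Ctsa, a carboxypeptidase that protects other lysosomal enzymes, 0.06, and Grn, the growth factor progranulin, 0.04. Hexa, the hexosaminidase subunit lost in Tay-Sachs disease, stood at 0.05 and the peptidase gene Tpp1 at 0.03. With each library left out in turn, Ctsl ran from 0.050 (without LAQ 8) to 0.16 (without control 1), Ctsa from 0.031 (without LAQ 7) to 0.097 (without control 4), and Hexa from 0.0096 (without control 1) to 0.10 (without control 4). Gaa, the acid glucosidase that digests glycogen, averaged 446 ± 34.1 CPM in LAQ and 445 ± 12.2 CPM in control (SD, n = 4 each), with a 95% interval of -0.15 to 0.16. Gusb, the glucuronidase, stood at -0.03. Gla, the galactosidase lost in Fabry disease, ranged from 11.9 to 13.9 CPM in LAQ and from 11.4 to 18.3 CPM in control. Control 2 gave the 18.3 CPM, and the log2 fold change of -0.15 was -0.0042 without it and -0.23 without control 3.

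**Figure D3:**
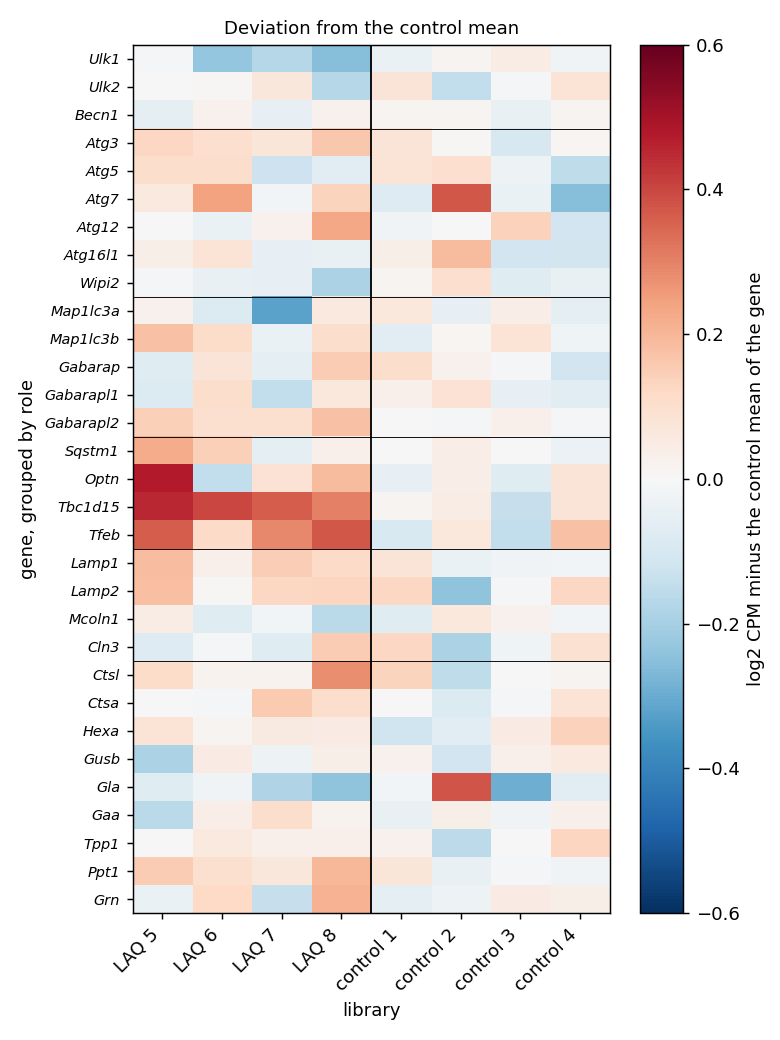
Log2 CPM of each gene minus its control mean, by library (columns, LAQ left of control) and by gene (rows, grouped by role with lines between groups); red is above and blue below the control mean. Tbc1d15 is strongly red in all 4 LAQ libraries, while many other rows mix colours within a group, among them Atg7 and Gla, which are high in control 2.

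Between genes, levels per kilobase of merged exon (RPKM) spanned a 79.7-fold range in control. This range and the order below depend on the merged length, which counts every annotated exon, whether used here or not. It was 7065 bases for Becn1 and 1996 for Hexa. In CPM, Lamp1 (mean 612 in control) and Sqstm1 (599) lay above Gabarapl1 (512). Gabarapl1 was highest, at 229 to 274 RPKM in LAQ and 243 to 269.6 RPKM in control. Lamp1 (249 ± 11.1 RPKM in LAQ and 229 ± 8.70 RPKM in control) and Sqstm1 (189.8 ± 15.9 RPKM and 179 ± 3.95 RPKM) came next (mean ± SD, n = 4 each). Tfeb was lowest, at 3.89 ± 0.32 RPKM in LAQ and 3.19 ± 0.33 RPKM in control. Ordered by the control mean, the first 7 genes (Gabarapl1, Lamp1, Sqstm1, Map1lc3a, Gaa, Gabarap and Ppt1) each lay above the next in rank without overlap between control libraries. Lower down the order was less distinct, and 17 of the 30 neighbouring pairs overlapped in control. Among them were Map1lc3b with Hexa, Hexa with Ctsa, and the run Mcoln1, Atg5, Lamp2 and Ulk1. In LAQ 18 of the 31 genes held the same rank, and no gene moved by more than 2 places.

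**Figure D4:**
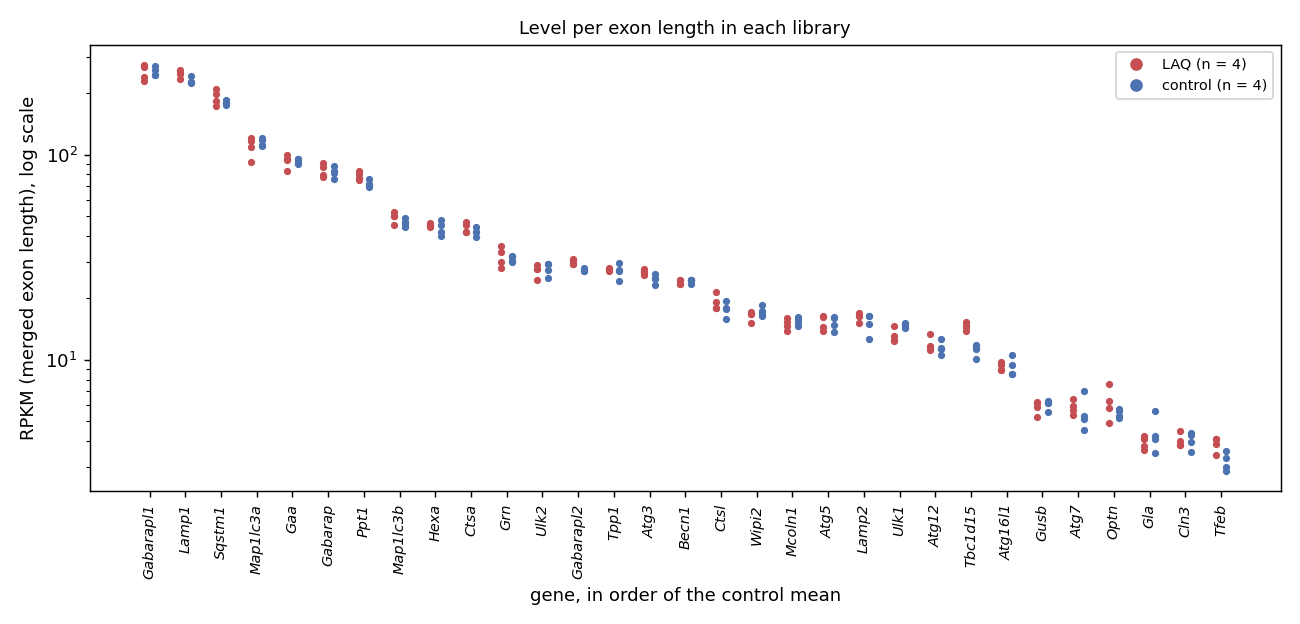
RPKM of each gene in each library on a log axis, genes ordered by their control mean, with LAQ left of control (n = 4 each). Levels fall from about 254 RPKM for Gabarapl1 to 3.19 RPKM for Tfeb in control, and within a gene the groups mostly overlap.

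The wider pathway also had a median near 0, but a wider range of log2 fold changes, from -0.40 to 0.80. The 0.80 was that of Stbd1, which reached at most 3.14 CPM in any library. Of 151 other genes in 7 lists, all were tested, 83 had a positive and 68 a negative log2 fold change with a median of 0.02, and 0 passed edgeR's test or DESeq2's. At an unadjusted edgeR p under 0.05 there were 6 higher and 4 lower, against 4.77% and 6.33% of all genes, and in 5 higher and 2 lower the groups did not overlap, against 2.78% and 3.61% of all genes. The 95% intervals of 145 of the 151 lay within 1.5-fold, and the other 6 were Atg16l2, Stbd1, Mitf, Vamp8, Tbc1d2b and Ctsh.

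Among other mitochondrial and selective receptors, Fundc1, a receptor on the outer mitochondrial membrane, stood at 67.9 to 77.6 CPM in LAQ, against 56.1 to 62.6 CPM in control. No LAQ library reached down into the control range. The log2 fold change was 0.28 ± 0.07 (SE), with an adjusted p of 0.228 by edgeR and 0.0966 by DESeq2. Of its list 9 of 12 genes were positive, with a median of 0.08. Stbd1, which ties glycogen to membranes, had 1.24 to 3.14 CPM in LAQ and 0.78 to 1.37 CPM in control, and the aggregate scaffold Wdfy3 a log2 fold change of -0.11.

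Of the autophagy core, 11 of 23 genes were positive. Atg16l2, a paralogue of Atg16l1, stood at 18.8, 18.7, 29.2 and 25.1 CPM in LAQ 5 to 8, against 27.7 to 30.0 CPM in control. LAQ 7 lay inside the control range and the other LAQ libraries below it. Its log2 fold change of -0.34 ± 0.14 (SE) did not pass edgeR's test (adjusted p = 0.411), nor without LAQ 7 (-0.48, adjusted p = 0.0559), and passed with the cortical neuron score (-0.70, adjusted p = 0.0125). Vmp1, a membrane protein of the endoplasmic reticulum, averaged 165 ± 4.75 CPM in LAQ and 151 ± 4.77 CPM in control (SD, n = 4 each) without overlap. Atg9a, the membrane scramblase, stood at a log2 fold change of -0.13.

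Genes of nutrient control were split, with 10 of 21 positive. Prkaa2, a catalytic subunit of the energy sensor AMPK, averaged 31.1 ± 1.86 CPM in LAQ and 36.3 ± 2.16 CPM in control (SD, n = 4 each), and its log2 fold change was -0.22 ± 0.08 (SE; edgeR adjusted p = 0.372). Tsc1, which restrains mTORC1, lay lower in all 4 LAQ libraries (39.5 to 47.7 CPM) than in any control library (48.7 to 52.3 CPM). Its edgeR adjusted p was 0.459. Tfe3, the relative of Tfeb, stood at -0.16 (edgeR adjusted p = 0.523), or -0.10 without control 4.

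In the fusion list 11 of 22 genes were positive. Tbc1d2b, another Rab regulator, stood at 17.4, 17.7, 26.8 and 21.3 CPM in LAQ 5 to 8, against 23.1 to 31.1 CPM in control. LAQ 7 lay within the control range, and the log2 fold change of -0.40 ± 0.15 (SE; edgeR adjusted p = 0.361) was -0.55 without it (adjusted p = 0.0441). With the cortical neuron score it was -0.73 (adjusted p = 0.0193). Rab7, the GTPase that Tbc1d15 acts on, averaged 372 ± 24.2 CPM in LAQ and 340.2 ± 14.2 CPM in control (SD, n = 4 each), and Vps39, of the tethering complex, 113 ± 7.25 CPM and 104 ± 3.21 CPM. Both had a log2 fold change of 0.13.

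Of the proton pump that acidifies the lysosome, 10 of 18 genes were positive, with a median of 0.03. Atp6ap2, an accessory protein of the pump, stood at 352, 318, 272 and 333 CPM in LAQ 5 to 8, against 255 to 276 CPM in control. LAQ 7 alone of the LAQ libraries lay inside the control range. The log2 fold change of Atp6ap2 was 0.27 ± 0.08 (SE; edgeR adjusted p = 0.278), or 0.33 without LAQ 7 (adjusted p = 0.0235) and 0.38 with the cortical neuron score (adjusted p = 0.0414). Atp6v1a, the catalytic subunit, showed the same library apart, with 376 CPM in LAQ 7, 577 to 638 CPM in the other LAQ libraries and 434 to 526 CPM in control. Atp6ap1 stood at 465 CPM in LAQ 7, 542 to 567 CPM in the other LAQ libraries and 485 to 493 CPM in control.

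Of the other lysosomal membrane genes 15 of 23 were positive, with a median of 0.06. Laptm4b had 127 CPM in LAQ 7, 156 to 182 CPM in the other LAQ libraries and 134 to 138 CPM in control, and passed edgeR's test without LAQ 7 (log2 fold change 0.30, adjusted p = 0.0417) but not with it (0.21, adjusted p = 0.442). Lamp5, a LAMP family member found in neurons, averaged 99.8 ± 13.8 CPM in LAQ and 124 ± 11.6 CPM in control (SD, n = 4 each; edgeR adjusted p = 0.316). Mfsd8, a membrane protein mutated in a neuronal storage disease, stood at 0.23.

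Of the other hydrolases and activators 17 of 32 were positive, with a median of 0.02. Ctsz, a carboxypeptidase of the cathepsin family, stood at 93.3, 104, 95.1 and 111 CPM in LAQ 5 to 8, against 83.0, 76.3, 88.8 and 87.4 CPM in control 1 to 4. The groups did not overlap, and the log2 fold change was 0.27 ± 0.08 (SE), with an adjusted p of 0.275 by edgeR and 0.147 by DESeq2. Arsb, a sulfatase, was higher in every LAQ library (151 to 179 CPM) than in any control library (139 to 149 CPM), with an edgeR adjusted p of 0.420, and Ctsd, the main aspartic protease, stood at a log2 fold change of 0.16. Arsa, the sulfatase whose loss causes a myelin disease, was named for being the remaining gene of the 7 without overlap, lower in LAQ at a log2 fold change of -0.15 (edgeR adjusted p = 0.473). It was chosen after its values were seen.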

How the data were processed

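The authors deposited raw counts as whole numbers by gene symbol, with 1 column per library. Tools named in the submitters' processing notes are STAR 2.5.2b, bcl2fastq 2.17.1.14, DESeq2 1.10.1 and HTSeq, with the build GRCm38.p3. The annotation release, strand setting and read filters are not given in the sources used here. A second table of normalized counts was not used.

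Genes were kept by edgeR's filterByExpr defaults (minimum count 10, total 15). After TMM scaling, the groups were tested with edgeR's two-sided quasi-likelihood test (edgeR 4.0.16, R 4.3.3) over all 8 libraries, with no covariate and Benjamini-Hochberg adjustment over all genes tested. The SE is the size of the log2 fold change over the square root of F. Log2 CPM used a prior count of 2. Alternatives were 2 other normalizations, no filter, DESeq2 1.42.0, the cortical neuron score (mean z score of 14 markers) as covariate, a threshold of 0.1 and each library left out. The steps were also run on simulated counts, whose outcome is not given here, so no statement on the sensitivity of the test rests on it. Merged exon lengths, positions and overlaps came from GENCODE M21, and near-identical copies from blastn 2.17.0.

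The 31 genes, the 7 other pathway lists and the 10 cell type lists were chosen with earlier results of these data known. Named genes are the 31, the 3 of smallest p in each other list, and those singled out as such. In the other lists 2 symbols were found under an older name (Rubcn and Retreg1). No gene of the whole table passed edgeR's adjusted threshold, so that count separates no marker list from the rest. At an unadjusted edgeR p under 0.05, where 11.1% of all genes lay, there were 7 of 9 ependymal, 5 of 8 thalamic, 8 of 15 myelin, 3 of 8 hippocampal, 5 of 14 cortical, 3 of 10 astrocyte, 1 of 10 endothelial, 1 of 12 microglial, 0 of 9 choroid plexus and 0 of 9 striatal markers. The median log2 fold changes were 0.66 for ependymal, -0.58 for thalamic, 0.21 for myelin, 0.85 for hippocampal, -0.15 for cortical, -0.11 for astrocyte, -0.19 for endothelial, -0.11 for microglial, 0.56 for choroid plexus and 0.11 for striatal markers.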

Additional observations from a re-analysis of the deposited data

Results flagged for a closer look

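In a group of 4 libraries a value was marked when its gap to the nearest other was over 0.829 of the group's range. Of 104 such groups 4 were marked, where chance marks about 1 in 20. Tfe3 stood at 42.7 CPM in LAQ 6, against 39.0 to 39.5 CPM in the other LAQ libraries. Becn1 stood at 165 CPM in control 3, against 172 CPM in each of the other control libraries. Stbd1 stood at 0.78 CPM in control 2, against 1.32 to 1.37 CPM in the others. Wdfy3 stood at 209.9 CPM in control 1, against 244 to 250.3 CPM in the others.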

How the results depend on the processing

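The counts of calls depended on 1 library and on the tool. The number of genes past the threshold over the whole table was 0 with all libraries, 25 without an expression filter, 129 by DESeq2, 485 with the cortical neuron score, and 0 to 339 with a library left out, the 339 without LAQ 7. Of the 31 genes, 1 passed by DESeq2, 1 with the cortical neuron score, and 0 to 1 with a library left out, each time Tbc1d15. The median log2 fold change stayed between 0.018 and 0.063 with a library left out. The following counts were added after the data had been seen. Between 18 and 24 of the 31 were positive, and between 29 and 31 had an interval within 1.5-fold, with a library left out. With the cortical neuron score these were 30 within 1.5-fold and 21 within 1.25-fold. No paired analysis was possible because the libraries of the groups share no number. Of 403 values of single genes under the alternatives 35 had the other sign, and in the fit with all libraries none of those genes had passed. With the cortical neuron score Map1lc3a stood at 0.020, Gabarapl1 at 0.064, Ctsa at -0.033 and Gaa at -0.058, and without a filter Becn1 at 0.00056 and Cln3 at 0.0040. With a library left out, the log2 fold change ran from -0.067 to 0.026 for Ulk2, -0.024 to 0.0040 for Becn1, -0.038 to 0.050 for Atg5, -0.0036 to 0.11 for Atg12, -0.031 to 0.073 for Atg16l1, -0.12 to 0.0012 for Map1lc3a, -0.014 to 0.065 for Gabarap, -0.053 to 0.031 for Gabarapl1, -0.063 to 0.037 for Cln3, -0.067 to 0.017 for Gusb, -0.030 to 0.058 for Gaa, -0.018 to 0.078 for Tpp1 and -0.014 to 0.10 for Grn. The cause was not tested.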
